A study of Mus musculus with 11 samples.

Results

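The 10 genes described here encode the peptides and receptors through which the arcuate nucleus of the hypothalamus regulates feeding and body weight. They are Pomc, Agrp, Npy, Cartpt, Mc3r, Mc4r, Lepr, Npy1r, Npy2r and Npy5r. They were taken by gene symbol, and all 10 were among the 14864 genes of the deposited table. RNA was sequenced from hypothalamus pieces of mice aged 60 to 70 postnatal days that were labelled heterozygous for Myt1l (Het, 3 males and 3 females) or wild type (WT, 3 males and 2 females). The 11 libraries are labelled as separate samples, and the labels do not say whether each is from its own animal. The p-values thus measure the spread between these samples that a correction of the deposited table left. The gene Myt1l encodes a DNA-binding protein with zinc fingers that neurons express. The labels give neither the mutated allele nor the strain, and name no treatment, and the series title alone speaks of loss of the protein.

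In the arcuate nucleus, neurons that make proopiomelanocortin (Pomc) and CART release melanocortin peptides that restrain feeding by activating the receptors MC3R and MC4R. Neighbouring neurons release AgRP, which blocks those receptors, and neuropeptide Y, which acts on its own receptors to promote feeding. Leptin from fat tissue acts through its receptor on both kinds of neuron. In a piece of bulk tissue, fewer cells of a type and less RNA per cell cannot be told apart.

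Levels are given in CPM, the unit of the deposited table, in which the libraries share an upper quartile of 5.47 on the log2 scale and do not sum to the same total. The level of Myt1l overlapped between the groups. It ran from 58.7 to 130 CPM in libraries labelled Het, against 51.1 to 89.3 CPM in those labelled WT. Its mean was 76.3 CPM in both groups, with SDs of 26.9 CPM in Het and 15.9 CPM in WT. Its median was lower in Het, at 64.6 CPM, than in WT, at 83.5 CPM. With all 11 libraries, the log2 difference of Myt1l was -0.011 (SE 0.18, limma adjusted p = 0.976), so its RNA level did not separate the labelled genotypes. The library labelled Het replicate 9 was the highest of all, and the library labelled WT replicate 11 was the lowest. Groups are used as labelled, and the genotype difference of each of the 10 genes is also given without these 2 libraries. That of Myt1l without them is not given, and its equal means include both. Corrected counts totalled 22921048 to 24941704 per library. Trh, Sst, Isl1 and Otp, genes that hypothalamic neurons express, were detected in all libraries, with means over libraries of 276, 502, 46.5 and 2.95 CPM. Sst is also in the list of Npy interneurons below, so it does not mark the hypothalamus alone.

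None of the 10 genes passed the test between Het and WT, where 453 of 13184 genes tested (3.44%) passed at a limma adjusted p under 0.05. Lepr stood farthest from zero, with a mean of 1.0 ± 0.43 CPM in Het (SD, n = 6) and 1.97 ± 0.36 CPM in WT (SD, n = 5). The other 9 had log2 differences between -0.30 and 0.08. Of the 10, 8 had a negative difference, where 53.0% of all genes tested did, and their median was -0.10, against -0.016 over all genes. At an unadjusted p under 0.05 there were 3 of them, Lepr, Cartpt and Pomc, and 22.3% of all genes tested. In 0 of the 10 were the Het and WT libraries fully apart, as they were in 3.35% of all genes.

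Levels differed widely between the genes. Per kilobase of merged exons, Npy was highest at 245 ± 22.9 CPM per kb (SD, n = 11), followed by Cartpt at 148 ± 12.1 CPM per kb and Pomc at 57.3 ± 13.7 CPM per kb. Agrp followed at 17.6 ± 5.50 CPM per kb. This order of the peptide precursors held in all 11 libraries. The receptors lay lower, with Npy2r at 4.56 ± 0.63, Npy1r at 4.15 ± 0.59, Mc4r at 3.41 ± 0.85, Npy5r at 3.12 ± 0.56, Mc3r at 1.03 ± 0.39 and Lepr at 0.20 ± 0.090 CPM per kb. Npy2r was above Npy1r in 8 of 11 libraries, Npy1r above Mc4r in 10 and Mc4r above Npy5r in 8. The mean log2 differences of these neighbours, 0.13, 0.32 and 0.10, stood beside SDs between libraries of 0.22, 0.34 and 0.37, so single libraries changed the order of these neighbours. Whether their means differ was not tested. Mc3r lay below Npy5r, and Lepr below Mc3r, in all 11. The annotated exons of Agrp overlap those of Ctcf on the opposite strand and of Gm5914 on the same strand, over 228 bases in all, so its reads and its length are uncertain in part.

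**Figure D1:**
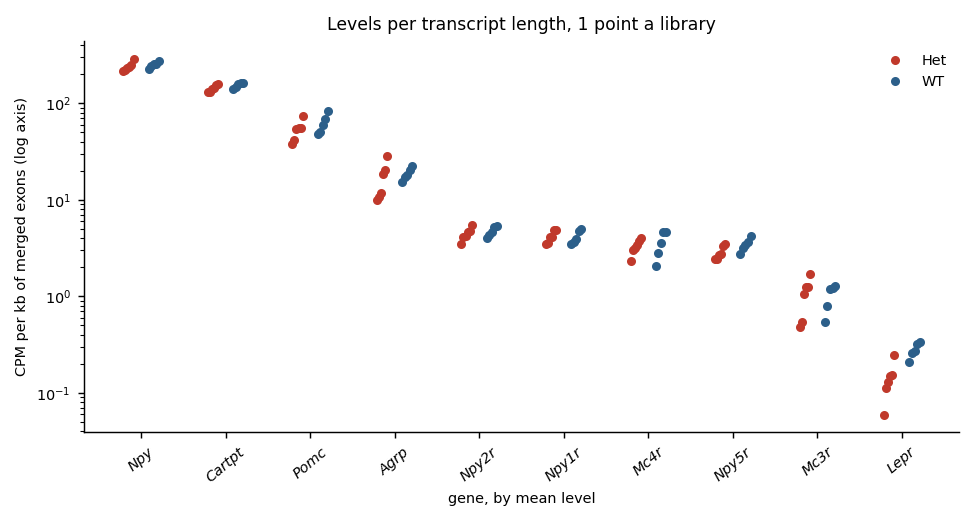
CPM per kilobase of merged exons (log axis) for each gene, ordered by mean level, with 1 point for each of the 6 Het (red) and 5 WT (blue) libraries. The 4 peptide precursors lie above all receptors, and Lepr has the lowest mean at 0.20 CPM per kb.

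Promoter sequences are shown for Lepr, which had the largest difference between the genotypes, and for Pomc and Cartpt, whose levels had the highest positive correlation between members across libraries. Each is the 250 bases before a RefSeq start in build GRCm38.p6, read 5′ to 3′ on the gene's strand. For Lepr the first of its 2 listed starts is shown, at chr4:101717157-101717406 on the plus strand. The Pomc window is chr12:3954695-3954944 on the plus strand, and the Cartpt window is chr13:99900684-99900933 on the minus strand. Capitals mark matches, on either strand, to a TATA box (TATAAA), a cyclic AMP response element (TGACGTCA), a STAT site (TTCNNNGAA) or an E-box (CANNTG).
Lepr: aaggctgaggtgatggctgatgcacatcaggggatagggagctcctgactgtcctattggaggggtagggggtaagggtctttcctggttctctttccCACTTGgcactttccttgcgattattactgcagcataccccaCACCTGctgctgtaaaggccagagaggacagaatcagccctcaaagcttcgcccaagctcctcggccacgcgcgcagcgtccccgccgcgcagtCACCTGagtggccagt
Pomc: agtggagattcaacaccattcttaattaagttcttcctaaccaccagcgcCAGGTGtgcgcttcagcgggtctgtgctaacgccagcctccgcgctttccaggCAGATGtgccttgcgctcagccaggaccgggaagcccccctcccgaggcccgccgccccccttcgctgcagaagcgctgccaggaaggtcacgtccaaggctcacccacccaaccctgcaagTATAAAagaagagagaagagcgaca
Cartpt: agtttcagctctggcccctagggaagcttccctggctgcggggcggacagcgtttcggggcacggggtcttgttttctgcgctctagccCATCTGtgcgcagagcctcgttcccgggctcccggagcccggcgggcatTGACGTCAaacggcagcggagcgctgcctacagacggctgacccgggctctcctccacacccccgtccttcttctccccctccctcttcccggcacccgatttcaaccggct
Pomc held a TATA box that begins 25 bases before the start, a motif present in 12.4% of 32851 promoter windows of the same length. Cartpt held a cyclic AMP response element that begins 112 bases before the start, present in 1.55% of windows. Lepr held 3 E-boxes in the window shown, Pomc 2 and Cartpt 1, where 66.2% of windows hold at least 1. The window of the other Lepr start held 0. No STAT site (7.02% of windows) lay in any of the 9 windows found for 8 of the 10 genes. These matches describe letters in a window and were not tested as binding sites.

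Lepr encodes the leptin receptor, of which mice make several splice forms that a level over the whole gene does not separate. It lies on mm10 chromosome 4 from 101717404 to 101815352. Its levels in Het males with replicate numbers 5, 8 and 9 were 0.92, 0.80 and 1.72 CPM, against 1.48, 2.39 and 1.81 CPM in WT males 3, 7 and 11. In Het females 2, 4 and 7 they were 1.06, 1.09 and 0.42 CPM, against 2.25 and 1.93 CPM in WT females 4 and 6. All Het libraries except the library labelled Het replicate 9 lay below all 5 WT libraries, and WT replicate 3 was the one WT library below that exception. On the log2 scale Het minus WT was -0.75, with an SE of 0.24 and a 95% confidence interval from -1.25 to -0.25 (limma adjusted p = 0.0879).

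The Lepr difference was negative under all 28 alternative settings, from -1.22 to -0.55, and passed in none of them (limma adjusted p 0.0573 to 0.621). Without the libraries labelled Het replicate 9 and WT replicate 11, it was -0.90 with a limma adjusted p of 0.0794. Within identifier prefix 14308, a group of 2 Het and 2 WT males, it was -0.81, and within prefix 14309, with 4 Het and 2 WT libraries, it was -0.55. These prefixes come from the sample descriptions, which do not say what they mean. Lepr is a low gene, with 10 to 41 corrected counts in Het and 35 to 57 in WT libraries, and its difference depended on the constant added before the logarithm. It was -0.97 with 0.1 CPM added and -0.58 with 1 CPM added, against -0.75 with 0.5 CPM.

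**Figure D2:**
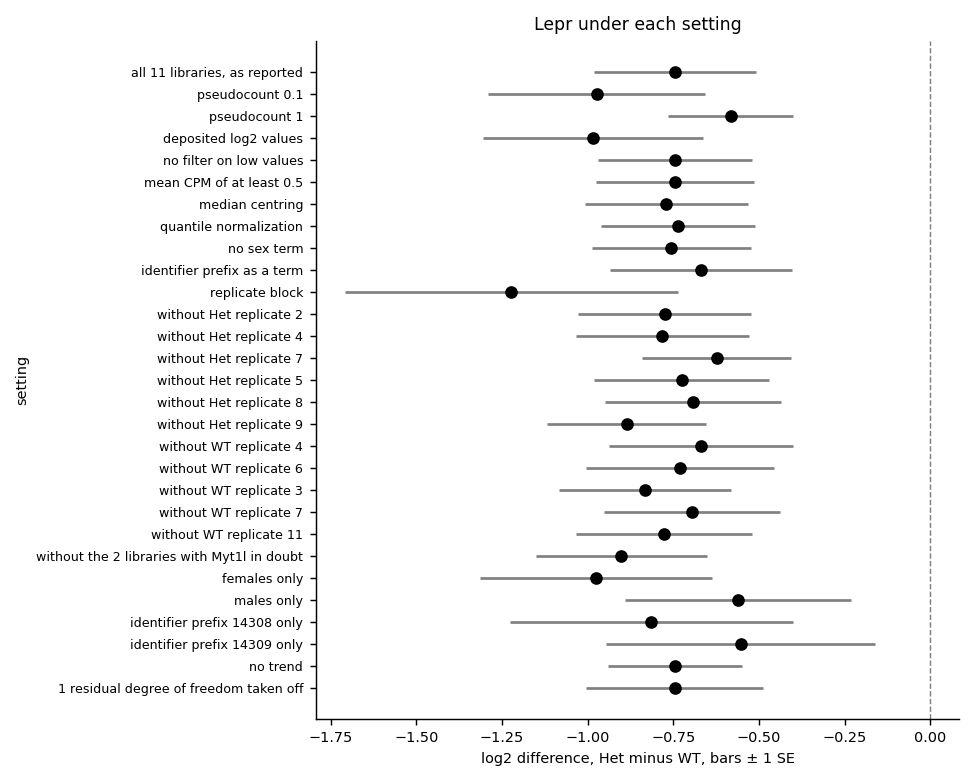
Log2 difference of Lepr between Het and WT (points, bars ± 1 SE) with all libraries and under each alternative setting. All points lie below 0, between -1.22 and -0.55.

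Lepr RNA is also made outside neurons, including in choroid plexus, vessels and meninges, so markers of these tissues were read beside it. Of 11 meningeal markers tested, 0 had a positive difference and 1 passed, Dcn, a proteoglycan of connective tissue, with a log2 difference of -0.36 (limma adjusted p = 0.0321). Their summed level was 120 to 374 CPM in Het and 236 to 303 CPM in WT. Of 10 endothelial markers 5 had a positive difference, with a median of -0.053, and 1 fell, Slc2a1, the glucose transporter of the blood-brain barrier, at -0.30 (limma adjusted p = 0.0488), and the sums, mostly of Slc2a1 and Ly6c1, were 233 to 296 CPM in Het and 257 to 351 CPM in WT. Of 13 choroid plexus markers 9 were tested and 0 passed, with a median difference of -0.28. Their sums were 41.2 to 57.1 CPM in Het and 44.1 to 72.1 CPM in WT. The largest part on average was Prlr, which arcuate neurons also express, at 16.7 CPM in Het and 13.4 CPM in WT. Its log2 difference was 0.32 (limma adjusted p = 0.167). Slc4a5 and Kcne2 of the choroid plexus list were not among the genes of the deposited table. None of the other choroid plexus, meningeal or endothelial markers was at 0 in all libraries, which does not tell how much of these tissues was present. Cldn2 was at 0 in 2 libraries. Of 12 markers of tanycytes, the cells that line the floor of the ventricle, 9 were tested and 0 passed. Their sums, mostly of Crym and Cd59a, were 234 to 307 CPM in Het and 249 to 295 CPM in WT. The part of these tissues in the Lepr difference was not tested.

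Agrp, the antagonist of melanocortin receptors (mm10 chromosome 8 from 105566698 to 105637393), had opposite differences in the sexes. In Het males 5, 8 and 9 it stood at 10.1, 12.0 and 10.9 CPM, against 22.9, 18.2 and 17.3 CPM in WT males 3, 7 and 11. In Het females 2, 4 and 7 it stood at 20.9, 18.8 and 28.8 CPM, against 15.7 and 20.8 CPM in WT females 4 and 6. All 3 Het males lay below all 3 WT males, a lack of overlap that 18.6% of all genes tested showed among males. In females the groups overlapped. The log2 difference was -0.79 in males (SE 0.17, limma adjusted p = 0.0964) and 0.31 in females (SE 0.19, limma adjusted p = 0.506). These values within 1 sex come from the fit with the interaction over all 11 libraries, which pools the spread of both sexes. In that fit, 9 genes (0.0683%) passed in males and 0 (0%) in females.

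The difference between the sexes in the Agrp genotype difference was -1.09 (SE 0.26, 95% confidence interval -1.64 to -0.55). Its unadjusted limma p was 0.000714 and its adjusted p was 0.982. No gene of 13184 passed this interaction test (0%), and 613 (4.65%) had an unadjusted p under 0.05, among them Agrp and Mc4r of the 10 genes. The Agrp interaction was -1.17 without the libraries labelled Het replicate 9 and WT replicate 11, and -0.75 within prefix 14309. Within prefix 14309 these libraries are the only males, and WT replicate 6 is the only WT female. Without them all males are of prefix 14308 and no female is, so sex and prefix cannot be told apart. The Agrp interaction passed under none of 24 alternative settings (lowest limma adjusted p 0.667). Over both sexes, Agrp averaged 16.9 ± 7.29 CPM in Het (SD, n = 6) and 19.0 ± 2.89 CPM in WT (SD, n = 5). The coefficient of variation was 43.1% in Het and 15.2% in WT over both sexes, but 8.45% in Het males and 15.5% in WT males. Females averaged 22.8 ± 5.25 CPM in Het (SD, n = 3) and 18.2 ± 3.65 CPM in WT (SD, n = 2). The genotype difference over both sexes was -0.30 (SE 0.18, limma adjusted p = 0.344), and -0.22 without the libraries labelled Het replicate 9 and WT replicate 11. It was -0.86 within prefix 14308, which is all male, and -0.19 within prefix 14309.

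**Figure D3:**
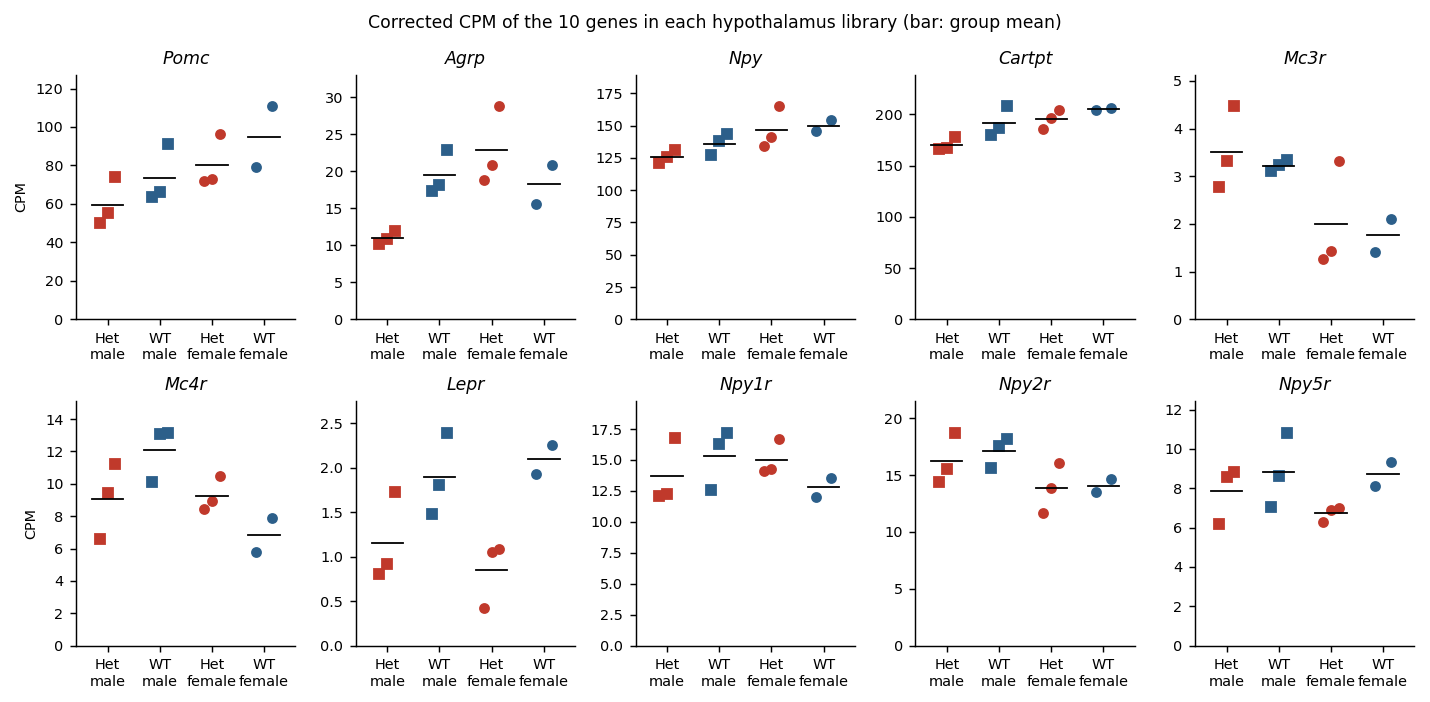
Corrected CPM of each of the 10 genes in the 11 libraries, by genotype and sex (squares males, circles females, red Het, blue WT, black bar the group mean, each axis starting at 0). Agrp in the 3 Het males lies at 10.1 to 12.0 CPM, below the 3 WT males at 17.3 to 22.9 CPM, and 5 of 6 Het libraries have less Lepr than all WT libraries.

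Pomc, the precursor that is cut into melanocortins and endorphin (mm10 chromosome 12 from 3954951 to 3960642), averaged 70.1 ± 16.4 CPM in Het (SD, n = 6) and 82.2 ± 19.3 CPM in WT (SD, n = 5). Its values were 55.0, 73.8 and 50.2 CPM in Het males 5, 8 and 9, against 63.8, 66.4 and 91.0 CPM in WT males 3, 7 and 11. They were 73.0, 71.8 and 96.5 CPM in Het females 2, 4 and 7, against 110.7 and 79.3 CPM in WT females 4 and 6. WT replicate 4 was the highest and Het replicate 9 the lowest library, and the groups overlapped. The log2 difference was -0.27 (SE 0.12, 95% confidence interval -0.53 to -0.01, limma adjusted p = 0.206). It was -0.14 (limma adjusted p = 0.535) without the libraries labelled Het replicate 9 and WT replicate 11. It was -0.029 within prefix 14308 and -0.34 within prefix 14309, and -0.041 with the replicate number as a block.

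The pituitary makes Pomc at high levels and hangs below the hypothalamus. Cga, the common subunit of pituitary glycoprotein hormones, ran from 3.69 to 19.3 CPM in Het and from 8.98 to 15.3 CPM in WT, a log2 difference of -0.56 (limma adjusted p = 0.155). Chga, a granule protein gene that neurons also express, ran from 366 to 430.1 CPM in Het and from 306 to 612 CPM in WT, a log2 difference of -0.24 (limma adjusted p = 0.208). Tbx19, a factor of the Pomc cells of the pituitary, ran from 0 to 0.63 CPM in Het and from 0.042 to 1.01 CPM in WT, below the filter. Tshb and Fshb, subunits of pituitary hormones, were also below the filter, with means of 0.63 and 0.13 CPM, and Fshb was at 0 in 8 libraries. Gh, Prl, Lhb, Pitx1, Pou1f1 and Pax7, the other pituitary markers sought, were not among the 14864 genes of the deposited table and have no level here. The part of the pituitary in Pomc was not tested.

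Cartpt, which encodes the CART peptide made beside Pomc in the arcuate nucleus and by other hypothalamic neurons (mm10 chromosome 13 from 99898489 to 99901091), averaged 183 ± 15.7 CPM in Het (SD, n = 6) and 197 ± 12.6 CPM in WT (SD, n = 5). In Het males 5, 8 and 9 it stood at 166, 178 and 167 CPM, all below WT males 3, 7 and 11 at 180, 187 and 208 CPM, a lack of overlap that 18.6% of all genes tested showed among males. In Het females 2, 4 and 7 it stood at 185, 197 and 205 CPM, against 206 and 204 CPM in WT females 4 and 6. The log2 difference was -0.12 (SE 0.055, 95% confidence interval -0.24 to -0.01, limma adjusted p = 0.193). It was -0.081 without the libraries labelled Het replicate 9 and WT replicate 11, and -0.060 with quantile normalization. Within prefixes 14308 and 14309 Cartpt differed by -0.093 and -0.16.

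Npy, which encodes neuropeptide Y (mm10 chromosome 6 from 49822710 to 49829507), varied little. It ran from 121 to 165 CPM with a median of 133 CPM in Het, and stood at 127 to 154 CPM with a median of 143 CPM in WT. The Het range enclosed the WT range. The log2 difference was -0.08 (SE 0.062, 95% confidence interval -0.21 to 0.05, limma adjusted p = 0.494). It was -0.039 without the libraries labelled Het replicate 9 and WT replicate 11, -0.046 within prefix 14308 and -0.14 within prefix 14309. Interneurons of cortex and striatum also make Npy, and of 14 striatal markers 7 rose and 14 had a positive difference, with a median of 0.51, Drd1 at 0.79 and Scn4b at 1.08 (limma adjusted p 0.00501 and 0.00641), and summed levels of 446 to 816 CPM in Het and 332 to 572 CPM in WT. Of 10 tested cortical and hippocampal markers, 6 had a positive difference and 2 rose, Rorb at 0.47 and Bcl11b at 0.65. Fezf2, Neurod6 and Slc17a7, genes of cortical excitatory neurons, had -0.50, -0.25 and -0.19. Tbr1 and Neurod2, also genes of such neurons, had 0.80 (limma adjusted p = 0.0704) and 0.36, at means of 1.03 and 1.10 CPM. Cux2 had 0.30 (limma adjusted p = 0.0927). The sums, of which Rorb, Cux2 and Bcl11b were the main parts, were 105 to 112 CPM in Het and 78.2 to 96.0 CPM in WT. Rorb is also in a list of 10 thalamic markers, so it does not mark cortex alone. Of that list 7 had a positive difference and 2 rose, Rorb included, with a median of 0.18. Of 8 genes of Npy interneurons, 0 passed and 5 had a positive difference, with a median of 0.088. Tacr1, a tachykinin receptor gene, had 0.61 (limma adjusted p = 0.0586), Nos1, the neuronal nitric oxide synthase gene, had 0.38 (limma adjusted p = 0.0734), and Sst, a peptide gene that arcuate neurons also express, had -0.17 (limma adjusted p = 0.0845). None of the markers in these lists was at 0 in all libraries, which does not tell how much of these tissues was present. Their part in the Npy level was not tested.

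The melanocortin receptors had small differences between the genotypes and wide intervals. Mc4r, the receptor whose loss causes obesity in mice and humans (mm10 chromosome 18 from 66857704 to 66860506), stood at 6.58, 9.43 and 11.3 CPM in Het males 5, 8 and 9, against 13.2, 13.1 and 10.1 CPM in WT males 3, 7 and 11. In Het females 2, 4 and 7 it stood at 8.91, 10.5 and 8.43 CPM, against 5.76 and 7.89 CPM in WT females 4 and 6. Het females lay above WT females, a lack of overlap that 33.5% of all genes showed among females, and males overlapped. The log2 difference was -0.42 in males (SE 0.20) and 0.43 in females (SE 0.23), and over both sexes it was -0.04 (95% confidence interval -0.42 to 0.34, limma adjusted p = 0.913). The interaction was -0.84 (SE 0.30) with an unadjusted limma p of 0.0138 and an adjusted p of 0.982. The Mc4r interaction was -1.13 without the libraries labelled Het replicate 9 and WT replicate 11. It was -0.070 within prefix 14309, where those 2 libraries are the only males. The Mc4r genotype difference over both sexes was -0.086 without those 2 libraries, -0.70 within prefix 14308 and 0.19 within prefix 14309. Mc3r, which is expressed by arcuate neurons themselves (mm10 chromosome 2 from 172248492 to 172251114), averaged 2.76 ± 1.23 CPM in Het (SD, n = 6) and 2.64 ± 0.84 CPM in WT (SD, n = 5). Its log2 difference was 0.08 (95% confidence interval -0.37 to 0.54, limma adjusted p = 0.860). It was 0.13 without the same 2 libraries, 0.20 within prefix 14308 and -0.14 within prefix 14309.

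None of the 3 neuropeptide Y receptors passed between the genotypes. Npy5r, a feeding-related receptor, averaged 7.31 ± 1.13 CPM in Het (SD, n = 6) and 8.79 ± 1.41 CPM in WT (SD, n = 5), with a log2 difference of -0.24 (95% confidence interval -0.53 to 0.06, limma adjusted p = 0.324). Its Het values ran from 6.20 to 8.82 CPM with a median of 6.97 CPM, and 4 of 6 lay below all WT values, which ran from 7.06 to 10.8 CPM. Npy1r, which lies near Npy5r on mm10 chromosome 8 (from 66697192 to 66706792, against 66679965 to 66688128), averaged 14.4 ± 2.05 CPM in Het and 14.3 ± 2.28 CPM in WT. Its log2 difference was 0.01 (95% confidence interval -0.26 to 0.28) and turned negative under 11 of 29 settings, median centring (-0.016) and quantile normalization (-0.019) among them. Npy2r, the receptor by which neurons that release neuropeptide Y sense their own peptide (mm10 chromosome 3 from 82538383 to 82548084), ran from 11.7 to 18.7 CPM in Het and from 13.5 to 18.2 CPM in WT. Its log2 difference was -0.06 (95% confidence interval -0.29 to 0.17, limma adjusted p = 0.790). Without the libraries labelled Het replicate 9 and WT replicate 11, the differences were -0.36 for Npy5r, 0.00058 for Npy1r and -0.081 for Npy2r. Within prefix 14308 they were -0.38 for Npy5r, -0.27 for Npy1r and -0.14 for Npy2r, and within prefix 14309 they were -0.029 for Npy5r, 0.20 for Npy1r and 0.033 for Npy2r.

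**Figure D4:**
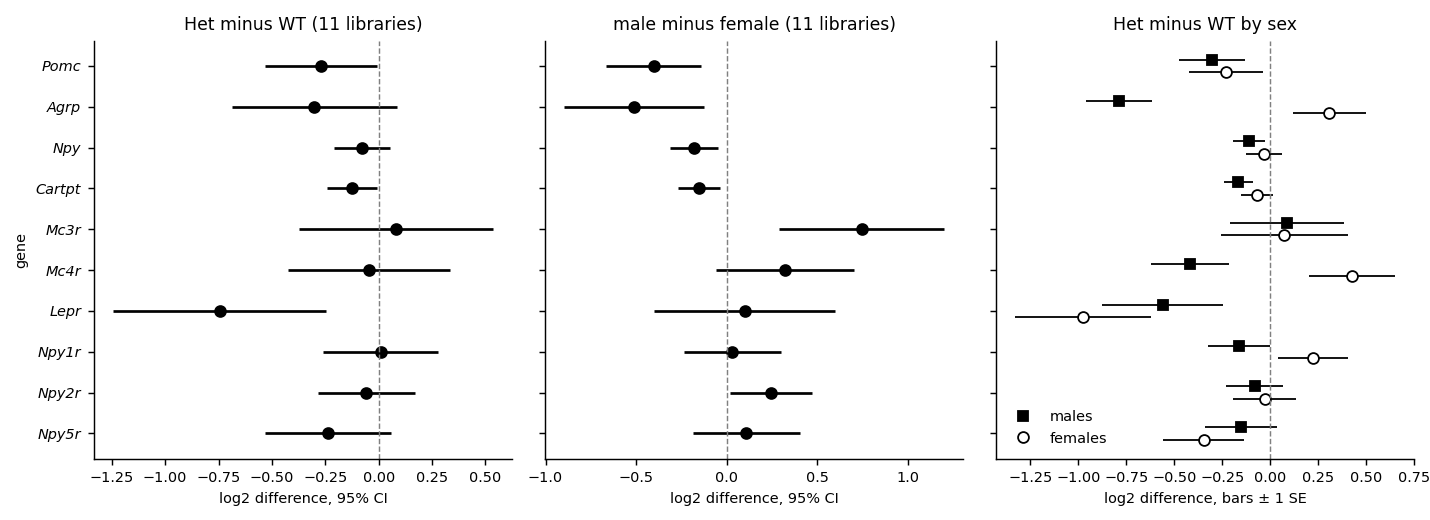
Log2 differences of the 10 genes between Het and WT and between males and females over 11 libraries (points, bars the 95% confidence interval), and between Het and WT within each sex (squares males, open circles females, bars ± 1 SE). None passed the adjusted threshold, Lepr is lowest between the genotypes at -0.75, and Agrp and Mc4r have differences of opposite sign in males and females.

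Males were set against females in the same fit, where 26 of 13184 genes (0.197%) passed and none of the 10 genes did. At an unadjusted limma p under 0.05 there were 6 of the 10, Pomc, Agrp, Npy, Cartpt, Mc3r and Npy2r, and 12.2% of all genes tested. All 4 peptide precursors had lower levels in males. Pomc averaged 66.7 ± 14.6 CPM in males (SD, n = 6) and 86.3 ± 16.8 CPM in females (SD, n = 5), so that male minus female was -0.40 (SE 0.12, limma adjusted p = 0.215). Agrp differed by -0.51 (SE 0.18), Npy by -0.18 (SE 0.062) and Cartpt by -0.16 (SE 0.055). The sexes were fully apart in 0 of the 10, against 1.03% of all genes. Ghrh, another arcuate peptide gene, differed by -0.38, the farthest from zero of 8 other arcuate genes tested. The median of these was -0.034, with Sst at -0.057 and Prlr at 0.071. The pituitary marker Cga averaged 8.86 CPM in males and 14.1 CPM in females (limma adjusted p = 0.176). All 11 meningeal markers had negative differences too, with a median of -0.43, Slc6a13 at -0.61, Lum at -0.59 and Ogn at -0.53, and 0 passed. Their sums were 120 to 283 CPM in males and 193 to 374 CPM in females. The choroid plexus marker Ttr had -1.63 (limma adjusted p = 0.247), where the median of its list was 0.018. The part of these tissues in the sex differences was not tested.

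Mc3r and Npy2r had higher levels in males. Mc3r averaged 3.37 ± 0.57 CPM in males (SD, n = 6) and 1.91 ± 0.85 CPM in females (SD, n = 5), so that male minus female was 0.74 (SE 0.22, 95% confidence interval 0.29 to 1.20, limma adjusted p = 0.184). Of 5 females, 4 had at most 2.10 CPM and lay below all males, whose lowest value was 2.77 CPM, and Het female 4 had 3.31 CPM. Npy2r averaged 16.7 ± 1.73 CPM in males and 13.9 ± 1.61 CPM in females, a difference of 0.24 (SE 0.11). All 4 libraries of prefix 14308 are male and the library of prefix 14111 is female, so sex and prefix overlap. Within prefix 14309, which holds 2 males and 4 females, the differences kept their sign for Pomc (-0.32), Agrp (-0.71), Npy (-0.20), Cartpt (-0.13), Mc3r (0.48) and Npy2r (0.43), and none passed. These 2 males are the libraries labelled Het replicate 9 and WT replicate 11, which had the highest and lowest Myt1l. Without them all males are of prefix 14308 and no female is, so sex and prefix cannot be told apart.

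Levels of the 10 genes were also compared with each other across the 11 libraries, after taking out the mean of each group of genotype and sex. Of 45 pairs, 4 had an exact permutation p under 0.05 by Pearson's r and 0 passed after adjustment over the 45 pairs. Pomc and Cartpt had r = 0.81 (exact permutation p = 0.0116, adjusted p = 0.313) and rho = 0.57 (exact permutation p = 0.0903). Their r was 0.66 without the 2 libraries farthest from the median of Pomc. Such libraries were picked by 1 gene of a pair only. Lepr and Npy had r = -0.85 (exact permutation p = 0.0139, adjusted p = 0.313) and rho = -0.82 (exact permutation p = 0.0231). Their r was -0.78 without the 2 libraries farthest from the median of Npy. The other pairs were Lepr with Npy1r (r = 0.75) and Lepr with Agrp (r = -0.69, but -0.40 without the 2 farthest by Agrp). Without taking out the group means, r was 0.90 for Pomc and Cartpt, but -0.25 for Lepr and Npy, 0.27 for Lepr and Npy1r and -0.15 for Lepr and Agrp. There are 432 arrangements within groups, so the smallest p is 0.00231. The correction of the table removed variation between libraries, and these correlations are of what it left.

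For each gene, the genes whose residual levels followed it most closely over the 11 libraries were read from 12848 genes, as a description. For Pomc these were Mak (r = 0.95), Hyou1 and Ctsf, and for Cartpt Srarp (r = 0.97), Npas1 and Amacr. For Agrp they were Nkain2 (r = 0.97), Casp1 and Aldh5a1, and for Npy Swt1 (r = 0.97), Ttc9 and Pard6a. For Lepr they were Nmnat1 (r = 0.96), Id1 and Arsb. Mc3r was followed most closely by Alg3 (r = 0.97), Apool and Sprtn, and Mc4r by Zfp235 (r = 0.97), Erlec1 and Hltf. Npy1r was followed by Mgat4b (r = 0.96), St6galnac2 and Hist2h4, Npy2r by Tcn2 (r = 0.94), Mtrf1l and Psmd7, and Npy5r by Ap2m1 (r = 0.96), Acp6 and Slc29a1. None of the 10 genes was among the 3 closest of another. All these libraries share 1 correction, and the highest of 12848 values over 11 libraries is high for any gene.

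Related genes from fixed lists gave the surroundings of the 10. Of 15 genes of melanocortin processing and accessory function, 11 were tested and 0 passed, 6 of them with a positive difference and a median of 0.036. Cpe, the carboxypeptidase that trims peptide precursors, averaged 1571 CPM in Het and 1833 CPM in WT, a difference of -0.23 on the log2 scale (SE 0.061, limma adjusted p = 0.0513). Mrap2, a partner protein of MC4R, had -0.11, and Sdc3, a syndecan that aids AgRP, had 0.30 (limma adjusted p = 0.171). Dpp4, which encodes a peptidase that cleaves neuropeptide Y, had -0.31 (limma adjusted p = 0.672). Pyy, Ppy, Npy4r and Npy6r were not among the genes of the deposited table and have no level here.

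Of 19 genes of leptin and insulin signalling, 17 were tested and 0 passed, and 14 had a positive difference, with a median of 0.063. Foxo1, a transcription factor that insulin and leptin signals switch off, had 0.40 (SE 0.13, limma adjusted p = 0.0892). Ptpn11, a phosphatase bound by the leptin receptor, had 0.21, and Jak2, the kinase bound by it, had 0.19. Sh2b1, an adaptor of that kinase, had -0.20. Socs3 and Irs1, the list's other genes, were below the filter.

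Arcuate transcription factors and other arcuate neuron genes also had no member past the threshold. Of 9 factors tested, 2 had a positive difference, and Bsx, a homeobox factor of AgRP neurons, averaged 1.63 CPM in Het and 2.56 CPM in WT, a difference of -0.59 on the log2 scale (SE 0.24, limma adjusted p = 0.168). Of 8 other arcuate genes tested, 3 had a positive difference, and the growth hormone-releasing hormone gene Ghrh had -0.24 and the prolactin receptor gene Prlr had 0.32. Of 5 genes of the paraventricular nucleus and related targets of melanocortin signals, 1 had a positive difference, with Crh, the corticotropin-releasing hormone gene, at -0.45 and Trh, the thyrotropin-releasing hormone gene, at -0.16.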

How the data were processed

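Total RNA of 11 hypothalamus samples was made into libraries with a SMARTer Ultra Low kit, per the labels' protocols. The authors' deposited table holds log2 CPM after a correction that its name gives as RUVr (removal of unwanted variation from residuals). The submitters' processing notes name Trimmomatic, Bowtie2, STAR and HTSeq with mm10, but not how the correction was set. CPM were recovered as the antilog minus the common floor (0.0840 CPM). One corrected count was worth 0.0417 to 0.0423 CPM, and all values below 500 counts were whole multiples within 0.02. Corrected counts totalled 22921048 to 24941704 per library, and raw depth is unknown. No source used here says if counting was stranded.

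The planned test assumed linear CPM and was run on log2(CPM + 0.5) for the 13184 genes with a mean of at least 1 CPM, with limma 3.58.1 in R 4.3.3 (eBayes with trend, terms for genotype and sex, two-sided, Benjamini-Hochberg over all genes, threshold 0.05). The interaction is the genotype difference in males minus that in females. Genotype differences within each sex come from the fit with the interaction over all 11 libraries, except in the settings with males only or females only. The fit was tested on simulated data with independent normal noise and no correction step, so this cannot show what the correction does to p-values. Since the correction works on residuals, p-values and intervals may be too small. Lengths come from GENCODE M21 and promoters from RefSeq, GRCm38.p6. The members and lists were chosen with earlier results of these data known. Alternatives changed the added constant, the filter, the scaling, the model terms and the libraries. Named genes were all 10 members, at most 4 per list with the smallest p, and the 3 genes most like each member. Tshb, Fshb, Tbx19, Cldn2, Slc4a5, Kcne2, Socs3, Irs1, Gh, Prl, Lhb, Pitx1, Pou1f1 and Pax7 were named beside them as low or absent markers. Fezf2, Neurod6, Slc17a7, Neurod2, Lum and Ttr were chosen after their values were seen. Cd59a was named as a main part of a sum. A pituitary marker of the lists is not reported here.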

Additional observations from a re-analysis of the deposited data

How the results depend on the processing

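None of the 10 genes passed between Het and WT, between males and females or in the interaction under any alternative run. The number of genes called between Het and WT, 453, was 189 with 1 residual degree of freedom taken off, 170 without the trend, 200 without the sex term, 300 with prefix as a term and 229 without the libraries labelled Het replicate 9 and WT replicate 11. It was 0 in females only (1743 at an unadjusted p under 0.05 in females in the limma fit with the interaction), 1 in males only, 6 in prefix 14308 and 16 in prefix 14309. Leaving out 1 library gave 140 (without WT replicate 6) to 820 (without WT replicate 3), and Het replicates 2, 8 and 9 and WT replicates 4 and 7 also lowered it by over 1.5 times, to 220, 191, 180, 219 and 243, as did Het replicate 4, to 287. The groups share only the replicate numbers 4 and 7, of which 7 is a WT male and a Het female, and the deviations of same-numbered libraries had correlations of 0.13 and -0.092. With the replicate block, which leaves no room for a sex term, 46 genes passed, and signs turned for Agrp (0.45), Npy (0.17), Cartpt (0.032), Mc3r (-0.047), Mc4r (0.10) and Npy1r (-0.10).

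Of 288 values between Het and WT, replicate block included, 262 kept their sign, as did 230 of 238 between the sexes and 222 of 238 interactions. Npy1r turned to -0.016 with median centring, -0.019 with quantile normalization, -0.0073 with prefix as a term, -0.16 in males only and -0.27 in prefix 14308. Agrp was 0.31 and Mc4r 0.43 in females only. In prefix 14309 Mc3r was -0.14, Mc4r 0.19, Npy2r 0.033 and the Npy2r interaction 0.012. Without the 2 libraries in doubt, the sex difference was -0.026 for Lepr and -0.068 for Npy1r, and the interaction 0.20 for Pomc and -0.032 for Npy5r. Those 2 are the only males of prefix 14309, so without them all males are of prefix 14308. Leaving out 1 library gave genotype differences of -0.061 to 0.073 for Npy1r, -0.058 to 0.17 for Mc3r and -0.21 to 0.11 for Mc4r. Sex differences ran from -0.053 to 0.18 for Lepr and from -0.039 to 0.093 for Npy1r. Interactions ran from -0.20 to 0.36 for Mc3r, -0.17 to 0.056 for Npy2r, -0.31 to 0.17 for Pomc and -0.14 to 0.0084 for Npy. The filter at 5 CPM removes Lepr and Mc3r, which then have no value. The causes were not tested. Low counts limit Lepr and Mc3r, and intervals as wide as that of Lepr do not show that the groups are alike.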
